A study of Mus musculus with 10 samples.

Results

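The T cell receptor proximal signalling genes described here are 35 mouse genes that encode the receptor's own chains and co-receptors, the kinases that start its signal, the adaptors and enzymes that carry it, and the phosphatases and other regulators that restrain it. The list follows the genes' known functions, but it was chosen with earlier results of these data known. Its rule uses gene names and distances. A p65 summit was given to a member when it lay inside the gene, or outside it by at most 50 kb with that member as the nearest of 21883 protein-coding genes. By this rule 388 of the 26132 summits in the 4 deposited peak lists belonged to members, and 32 of the 35 members had at least 1 summit.

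The study used ChIP-seq, in which chromatin bound by a protein is precipitated and sequenced, to map where p65 (RelA), a DNA-binding subunit of NF-kB, lay in T cells of C57BL/6 mice (spleens and lymph nodes). Unstimulated conventional T cells (Tconv), stimulated Tconv, unstimulated regulatory T cells (Treg) and stimulated Treg each gave 2 immunoprecipitated libraries, and 2 further libraries held input chromatin mixed from these cells. Stimulation lasted 3 h on plate-bound antibody to CD3 with soluble antibody to CD28, with IL-2 at 2 ng/ml for Tconv and 10 ng/ml for Treg, so cell type and IL-2 dose cannot be told apart after stimulation. IL-2 and time in culture are given for the stimulated cells alone, so neither can be told apart from stimulation here. No allele, transgene, sorting marker, number of mice or culture of the unstimulated cells is named in the sources used here, and a list of binding sites holds no expression by which the labelled cell types could be checked.

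The T cell receptor has no enzyme of its own. When it meets its ligand, the kinase Lck phosphorylates motifs in the CD3 and zeta chains, Zap70 docks on them and phosphorylates the adaptors LAT and SLP-76, and these gather phospholipase C gamma 1, Vav1, Grb2 and their partners into a complex that raises calcium and activates Ras, protein kinase C theta and, further on, NF-kB. Csk, the phosphatases CD45, SHP-1 and PTPN22, the ubiquitin ligases c-Cbl and Cbl-b and the diacylglycerol kinases set the threshold of this response, and NF-kB is thus a transcription factor at the far end of the pathway whose genes are described here.

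Each group has 1 list, which the authors made from both libraries together, so there is no spread between replicates and no test. The intervals given are 95% Wilson intervals that cover counting error over genes or regions alone. Regions or summits of the same gene are not independent, so intervals over them can be too narrow. The lists held 3132 summits in unstimulated Tconv, 6480 in stimulated Tconv, 3442 in unstimulated Treg and 13078 in stimulated Treg, with median fold enrichments of 8.31, 12.6, 8.13 and 11.2. Fold enrichment is the authors' ratio of reads at a summit over the local background. The weakest summit kept had a −log10 p of 13.3, 38.1, 15.1 and 26.6 in the same order, and read depth is unknown. A summit that is missing from 1 list can therefore be one that this list's threshold left out, and folds of different lists are set side by side below without being read as a change.

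Members were listed more often than protein-coding genes in general in every list. In unstimulated Tconv 12 of the 35 members had a summit (34.3%, 20.8 to 50.8%), against 12.9% of all protein-coding genes. In stimulated Tconv 29 did (82.9%, 67.3 to 91.9%), against 16.9% of all genes. In unstimulated Treg the count was 16 (45.7%, 30.5 to 61.8%), with 13.8% for all genes. In stimulated Treg it was 31 (88.6%, 74.0 to 95.5%), with 25.8% for all genes. Members were long genes, with a median length of 45.4 kb against 17.2 kb for all protein-coding genes and 28.8 kb for genes with a stimulated Treg summit. The part of length in these counts was not tested. All protein-coding genes were counted whether or not T cells express them, since no expression was available here.

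**Figure D1:**
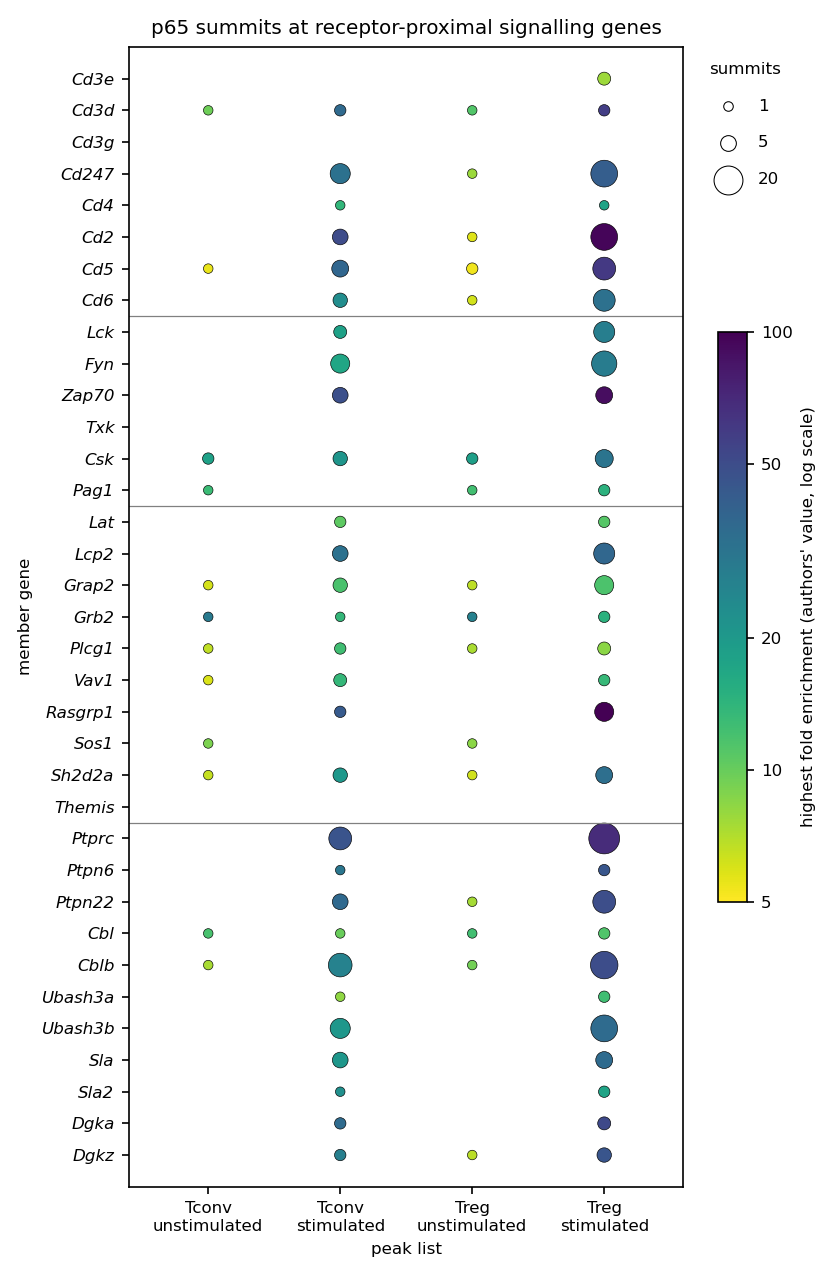
Summits of p65 at 32 of the 35 members (rows, grouped by role) in the 4 peak lists (columns). Circle area follows the number of summits, colour gives the highest fold enrichment on a log scale, and Cd3g, Txk and Themis have no circle; the stimulated columns hold 29 and 31 members and the unstimulated columns 12 and 16.

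Of the 35 members, 14 had a summit in both stimulated lists and in neither unstimulated list, against 6.38% of all genes, and 9 had a summit in all 4 lists, against 7.59%. The 14 include Lck, Fyn and Zap70, the kinases that start the signal, the adaptor genes Lat and Lcp2, and the phosphatase genes Ptprc and Ptpn6. The 9 listed throughout were Cd3d, Cd5, Csk, Grap2, Grb2, Plcg1, Sh2d2a, Cbl and Cblb. Cd247, Cd2, Cd6, Ptpn22 and Dgkz were listed in both stimulated lists and in unstimulated Treg, and Vav1 in both stimulated lists and in unstimulated Tconv. Sos1 was in both unstimulated lists alone, Pag1 in both unstimulated lists and stimulated Treg, and Cd3e in stimulated Treg alone. Cd3g, which encodes the CD3 gamma chain, Txk, a Tec family kinase, and Themis, an adaptor known from thymocyte selection, had no summit in any list, as did 70.5% of all genes.

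Promoter sequences are shown first for 3 members that had a summit there in an unstimulated list and that hold the same run of letters. Of the 35 members, 29 have a promoter in the RefSeq table for GRCm38.p6 (43 promoters in all, the coordinates being those of mm10). Cd4, Cd2, Cd6, Pag1, Sh2d2a and Sla have none there. For Grb2 and Grap2 the table holds only promoters further inside the gene. Their unstimulated summits near the outermost start therefore lie outside the promoters counted here. In all, 16 promoters of 14 members held a summit between 250 bases upstream and 50 downstream of the start. Among these, 5 held an unstimulated summit (those of Cbl, Csk, Dgkz, Plcg1 and Ptpn22), and 3 of the 5 contain the 14-base run CCAGCAGAGGGCGC, which resembles the core of the sequence bound by the insulator protein CTCF. They are shown over 30 bases on the gene's strand, 5′ to 3′, with the run in capitals.
Cbl: tctcttctCCAGCAGAGGGCGCaggcactg
Csk: tccaaggtCCAGCAGAGGGCGCcgacccac
Dgkz: gcttgaggCCAGCAGAGGGCGCcgtggggc
These stretches lie on the minus strand at chr9:44234235-44234264, chr9:57645687-57645716 and chr2:91963736-91963765. The run spans bases -210 to -197 from the start in Cbl, -55 to -42 in Csk and -194 to -181 in Dgkz. It was noticed by reading these promoters after the summits were known. On either strand it is present in the 250 upstream bases of 10 of the 21262 promoters of the table (0.047%), in 2 of the 1800 with an unstimulated Tconv summit (0.111%), in 4 of the 1829 with a stimulated Tconv summit (0.219%), in 4 of the 1895 with an unstimulated Treg summit (0.211%) and in 4 of the 3022 with a stimulated Treg summit (0.132%). Of the 530 promoters with a summit in an unstimulated list and none in a stimulated list, 0 hold it. These counts include the members, so the 2 in unstimulated Tconv are Cbl and Csk, and Cbl, Csk and Dgkz are 3 of the 4 in unstimulated Treg. The counts are a description, and nothing about stimulation is read from them. The summits themselves lay at 0, -89, -33 and -111 from the start of Cbl in the order unstimulated Tconv, stimulated Tconv, unstimulated Treg and stimulated Treg, so none of the 4 lay on the run. At Csk they lay at +4, +40 and -3 in the first 3 lists, and at Dgkz at -61 in unstimulated and -114 in stimulated Treg.

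The receptor chains and co-receptors are 8 genes, of which 2 had a summit in unstimulated Tconv, 6 in stimulated Tconv, 5 in unstimulated Treg and 7 in stimulated Treg. Cd3d, which encodes the CD3 delta chain, was listed throughout. Its highest fold was 9.72 in unstimulated Tconv, 35.9 in stimulated Tconv, 11.3 in unstimulated Treg and 57.8 in stimulated Treg. These 4 summits lay 4.93 to 4.96 kb downstream of the start, near the gene's other end, and in each stimulated list a second summit lay about 0.21 kb beyond that end (29.2-fold in Tconv and 41.8-fold in Treg). The stimulated Treg entry spans chr9:44985171-44987517. Its neighbour Cd3g had no summit of its own by the nearest-gene rule, although it lay 6.29 kb from the strongest Cd3d summit in stimulated Treg. Cd3e, which encodes CD3 epsilon, had 3 weak summits in stimulated Treg, at 6.25, 6.40 and 7.77-fold.

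Cd247, which encodes the zeta chain that carries most of the receptor's phosphorylation motifs, had 9 summits in stimulated Tconv and 17 in stimulated Treg, every one of them inside the gene. The strongest lay 15.6 kb downstream of the nearest start in both lists, at 32.5-fold in Tconv and 41.5-fold in Treg (chr1:165802584-165805231). Unstimulated Treg had a single summit, 7.80-fold and 56.0 kb from the nearest start, where stimulated Treg had 22.4-fold and stimulated Tconv 15.9-fold. Unstimulated Tconv had none. Cd4, which encodes the co-receptor that binds class II molecules, had 1 summit in each stimulated list, at 14.0-fold in Tconv and 17.6-fold in Treg, 3 bp apart.

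Cd2, an adhesion receptor that co-stimulates T cells, held the strongest summit of any member in stimulated Tconv, at 50.5-fold, and in stimulated Treg a summit 4 bp away had 96.5-fold (chr3:101279347-101282257, inside the gene). The same place had 5.81-fold in unstimulated Treg and no entry in unstimulated Tconv. Around Cd2, stimulated Treg listed 17 summits, from 42.3 kb outside the gene on 1 side to 12.4 kb on the other, against 5 in stimulated Tconv. Of its 12 merged Treg regions 7 had no counterpart in stimulated Tconv, and these were among the weaker ones. The highest of the 7 had 16.6-fold.

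Cd5 and Cd6 are neighbouring genes on chromosome 19 that encode related scavenger-type receptors, of which CD5 dampens receptor signals. Cd5 had a summit 1.83 to 1.85 kb upstream of its start in every list, at 5.55-fold in unstimulated Tconv, 37.6 in stimulated Tconv, 5.34 in unstimulated Treg and 60.3 in stimulated Treg. Both unstimulated values were among the weaker folds of their lists, and both stimulated values were in the top 10%. A second strong element lay between Cd5 and Cd6 (chr19:10763295-10764459), with 25.4-fold in stimulated Tconv and 60.6-fold in stimulated Treg. It was assigned to Cd5 at 25.1 kb, but Cd6 is 25.2 kb away, a difference of 55 bp in Tconv and 43 bp in Treg, so it cannot be given to either gene by distance. Cd6 itself reached 23.4-fold in stimulated Tconv and 33.1-fold in stimulated Treg at 1.77 and 1.78 kb outside the gene, and 6.14-fold in unstimulated Treg.

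Of the 6 genes for kinases and their control, 2, 4, 2 and 5 had a summit in unstimulated Tconv, stimulated Tconv, unstimulated Treg and stimulated Treg. The 3 kinases of the first steps other than Txk were listed after stimulation only. Lck, the Src family kinase that phosphorylates the receptor, had 17.9-fold in stimulated Tconv and 28.2-fold in stimulated Treg at the same base, 1.15 kb downstream of a start, within 3 summits in Tconv and 10 in Treg. Fyn, the related kinase, had 8 and 15 summits spread over the gene, the strongest at 16.9-fold in Tconv and 28.8-fold in Treg, both 65.3 kb from the start.

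Zap70, whose product binds the phosphorylated zeta chain, had 5 summits in stimulated Tconv and 6 in stimulated Treg and none without stimulation. The strongest lay at the same base in both lists, 4.47 kb downstream of a start (chr1:36768453-36769495), with 48.2-fold in Tconv and 90.2-fold in Treg, higher than 99.3% and 99.9% of their lists. A further summit lay in the promoter, 39 bases upstream of the outermost start in Tconv (16.3-fold) and 45 in Treg (23.8-fold), and that promoter is shown as an example of one listed only after stimulation.
Zap70: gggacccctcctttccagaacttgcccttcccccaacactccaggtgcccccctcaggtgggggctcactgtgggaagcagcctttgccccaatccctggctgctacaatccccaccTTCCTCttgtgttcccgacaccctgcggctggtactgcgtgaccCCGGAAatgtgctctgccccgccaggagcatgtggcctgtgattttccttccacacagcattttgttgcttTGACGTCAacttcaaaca
The 250 bases end at the base before the start (plus strand, chr1:36761548-36761797), and capitals mark TTCCTC and CCGGAA, letters of Ets family sites, and TGACGTCA, the palindrome bound by CREB and ATF factors. This was the only one of the members' 43 promoters with TGACGTCA, which 1.92% of all promoters hold.

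Csk, the kinase that inactivates Lck and Fyn, was listed throughout and had 2 elements. At the start the folds were 18.1 in unstimulated Tconv, 13.6 in stimulated Tconv, 18.6 in unstimulated Treg and 15.1 in stimulated Treg, so the 4 lists lay close together there. About 2 kb upstream of that start and still inside the gene, the folds were 9.60, 21.1, 7.63 and 31.6, with the stimulated lists higher. Pag1, which encodes the membrane anchor of Csk, had the opposite kind of entry. Its unstimulated summits, 12.9-fold in Tconv and 12.4-fold in Treg, lay 0.036 and 0.031 kb inside an end of the gene, and neither stimulated list had an entry there. Stimulated Treg instead had 6.84 and 14.8-fold at 29.6 and 32.3 kb outside the gene, and stimulated Tconv had none.

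Adaptors and enzymes are 10 members, of which 6, 8, 5 and 8 had a summit in the 4 lists in the order used above. LAT and SLP-76 (encoded by Lcp2) form the scaffold that Zap70 phosphorylates. Lat had 2 weak summits in each stimulated list, the higher at 10.5-fold in Tconv and 11.0-fold in Treg, 52 and 22 bases upstream of a start. Lcp2 had 5 in Tconv and 10 in Treg. In Tconv its strongest, at 32.6-fold, lay 3.85 kb upstream. In Treg that element had 35.8-fold, and a summit 0.122 kb downstream of the start had 37.4-fold. Stimulated Treg also had a 28.3-fold summit 9.80 kb beyond the far end of Lcp2, the strongest of all member regions in stimulated Treg with no stimulated Tconv counterpart.

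Rasgrp1, which encodes the exchange factor that activates Ras in T cells, held the strongest member summit of the series. It lay 47.4 kb upstream of the gene with no other protein-coding gene within 50 kb (chr2:117389626-117391186), at 42.8-fold in stimulated Tconv and 99.6-fold in stimulated Treg, 15 bp apart. The unstimulated lists had no entry at Rasgrp1. Within 1 kb downstream of the start the stimulated lists had 12.9-fold in Tconv and 10.5-fold in Treg, 80 bp apart, an order opposite to that of the distal summit. Stimulated Treg had a further summit of 6.89-fold 72 bases upstream of the start.

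Grb2, the adaptor that brings the exchange factor SOS to LAT, had the reverse order of values. Its summit within 0.1 kb upstream of the outermost start had 29.6-fold in unstimulated Tconv and 27.1-fold in unstimulated Treg, the only unstimulated member summits in the top 10% of their lists, and 13.7-fold in stimulated Tconv and 14.0-fold in stimulated Treg. Sos1, which encodes that exchange factor, had 9.05-fold in unstimulated Tconv and 8.46-fold in unstimulated Treg, 2.55 and 2.53 kb upstream of its start, and no entry in either stimulated list. The unstimulated folds of both genes differed little between Tconv and Treg.

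Plcg1, which encodes the phospholipase that makes inositol trisphosphate and diacylglycerol, was listed throughout at low folds. Its unstimulated summits had 6.65-fold in Tconv and 7.30-fold in Treg, 66 and 65 bases upstream of the start. Stimulated Tconv had 11.4-fold 0.273 kb downstream of the start and 12.5-fold 25.6 kb into the gene. Stimulated Treg had no entry at the start and at most 8.40-fold elsewhere, so Plcg1 was among the few members with higher values in stimulated Tconv. The promoter is shown as one listed without stimulation.
Plcg1: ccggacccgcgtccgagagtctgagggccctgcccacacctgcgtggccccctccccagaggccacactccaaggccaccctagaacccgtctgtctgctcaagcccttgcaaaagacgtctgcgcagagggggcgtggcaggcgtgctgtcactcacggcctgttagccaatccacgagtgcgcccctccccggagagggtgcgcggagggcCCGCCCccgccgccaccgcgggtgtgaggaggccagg
It is given on the plus strand (chr2:160731060-160731309) and ends at the base before the start. Capitals mark CCGCCC, which is GGGCGG, the GC box bound by Sp factors, on the other strand.

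Grap2, which encodes the adaptor GADS that joins SLP-76 to LAT, was listed throughout between 6.09 and 9.22-fold within 0.151 kb upstream of its outermost start. Its highest folds, 11.8 in stimulated Tconv and 11.7 in stimulated Treg, lay further inside. Vav1, an exchange factor for Rac, had summits 3.43 to 3.44 kb upstream at 5.91-fold in unstimulated Tconv, 12.4 in stimulated Tconv and 13.5 in stimulated Treg. Sh2d2a, which encodes the Lck-binding adaptor TSAd, had a summit inside the gene in every list, at 6.53-fold in unstimulated Tconv, 18.2 in stimulated Tconv, 6.24 in unstimulated Treg and 29.4 in stimulated Treg. Its strongest summits were 20.3-fold in stimulated Tconv and 34.0-fold in stimulated Treg, 1.67 and 1.68 kb outside the gene, and a further pair 14.4 kb outside had 11.0-fold and 32.4-fold.

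The phosphatases and other negative regulators, as grouped here, were the role with every member listed after stimulation. All 11 had a summit in both stimulated lists, against 2 in unstimulated Tconv and 4 in unstimulated Treg. The shares of all genes were 16.9 and 25.8% in stimulated Tconv and Treg, and 12.9 and 13.8% in unstimulated Tconv and Treg. Csk, its anchor Pag1 and Cd5, which dampens receptor signals, were grouped under other roles. Csk and Cd5 were in all 4 lists, while Pag1 had no stimulated Tconv summit. The 11 genes held 52 of the 122 member summits of stimulated Tconv and 91 of the 235 of stimulated Treg. The lowest highest fold of any of the 11 was 8.25 in stimulated Tconv, at Ubash3a, and 11.4 in stimulated Treg, at Cbl.

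Ptprc, which encodes CD45, the phosphatase that keeps Lck active, had 12 summits in stimulated Tconv and 23 in stimulated Treg and none without stimulation. The strongest lay at the same base in both lists, 12.3 kb downstream of a start (chr1:138162305-138163534), with 45.9-fold in Tconv and 69.0-fold in Treg. Others followed at 29.8 and 29.9 kb with 37.4-fold in Tconv and 54.6-fold in Treg, and at 37.9 kb with 29.9-fold and 43.7-fold. Each of the 11 merged Tconv regions at Ptprc had a counterpart in stimulated Treg. Ptpn6, which encodes SHP-1, had 31.0-fold in stimulated Tconv and 45.1-fold in stimulated Treg, 18 bp apart.

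Ptpn22 encodes a phosphatase that acts on Lck and Zap70. Its promoter summit had 26.2-fold in stimulated Tconv, 7.51-fold in unstimulated Treg and 43.5-fold in stimulated Treg, with no entry in unstimulated Tconv. The stimulated Tconv and Treg summits lay at -141 and -151 from the start and the unstimulated Treg summit at -27. The 30 bases around the stimulated Treg summit are given on the plus strand with that base in capitals (chr3:103860111-103860140).
Ptpn22: gaccacagtttgtgtTctggttagcctctt
The highest folds of Ptpn22, 36.3 in stimulated Tconv and 49.5 in stimulated Treg, lay 2.64 and 2.65 kb downstream of a start. Stimulated Treg had 12 summits at Ptpn22 and stimulated Tconv 5, and the remaining ones of Treg had 7.35 to 23.0-fold.

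Cbl and Cblb encode ubiquitin ligases that mark activated receptor components. Cbl had 12.0-fold in unstimulated Tconv, 9.92 in stimulated Tconv, 12.4 in unstimulated Treg and 11.4 in stimulated Treg, all at the promoter shown above. Cblb had 13 summits in stimulated Tconv and 18 in stimulated Treg, all inside the gene and none within 1 kb of a start. Its strongest summits were 26.5-fold in Tconv, 112 kb from the nearest start, and 49.6-fold in Treg, 36.4 kb from it. At 28.9 kb lay an element listed throughout, with 7.40-fold in unstimulated Tconv, 9.38 in stimulated Tconv, 9.51 in unstimulated Treg and 11.4 in stimulated Treg, and there the 4 lists lay close together.

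Dgka and Dgkz encode diacylglycerol kinases, which remove the diacylglycerol that Rasgrp1 needs. Dgka had its strongest summit 1.26 kb outside the gene at 35.4-fold in stimulated Tconv and 51.6-fold in stimulated Treg, although the gene Pym1 lies only 275 and 271 bp further from those summits. Dgkz had 27.8-fold in stimulated Tconv and 45.6-fold in stimulated Treg at an element inside the gene, 3 bp apart, and 6.80-fold in unstimulated Treg at its promoter. Ubash3b, which encodes a phosphatase-like suppressor of signalling, had 9 summits in stimulated Tconv, up to 20.4-fold, and 17 in stimulated Treg, up to 35.6-fold. Its relative Ubash3a had at most 8.25-fold and 12.5-fold. Sla and Sla2 encode adaptors that lead the receptor to degradation. All 11 summits of Sla, up to 20.6-fold in Tconv and 35.4-fold in Treg, also lie inside the gene Tg, in which Sla is nested. Sla2 had 22.6-fold in stimulated Tconv and 17.4-fold in stimulated Treg, 13 bp apart.

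**Figure D2:**
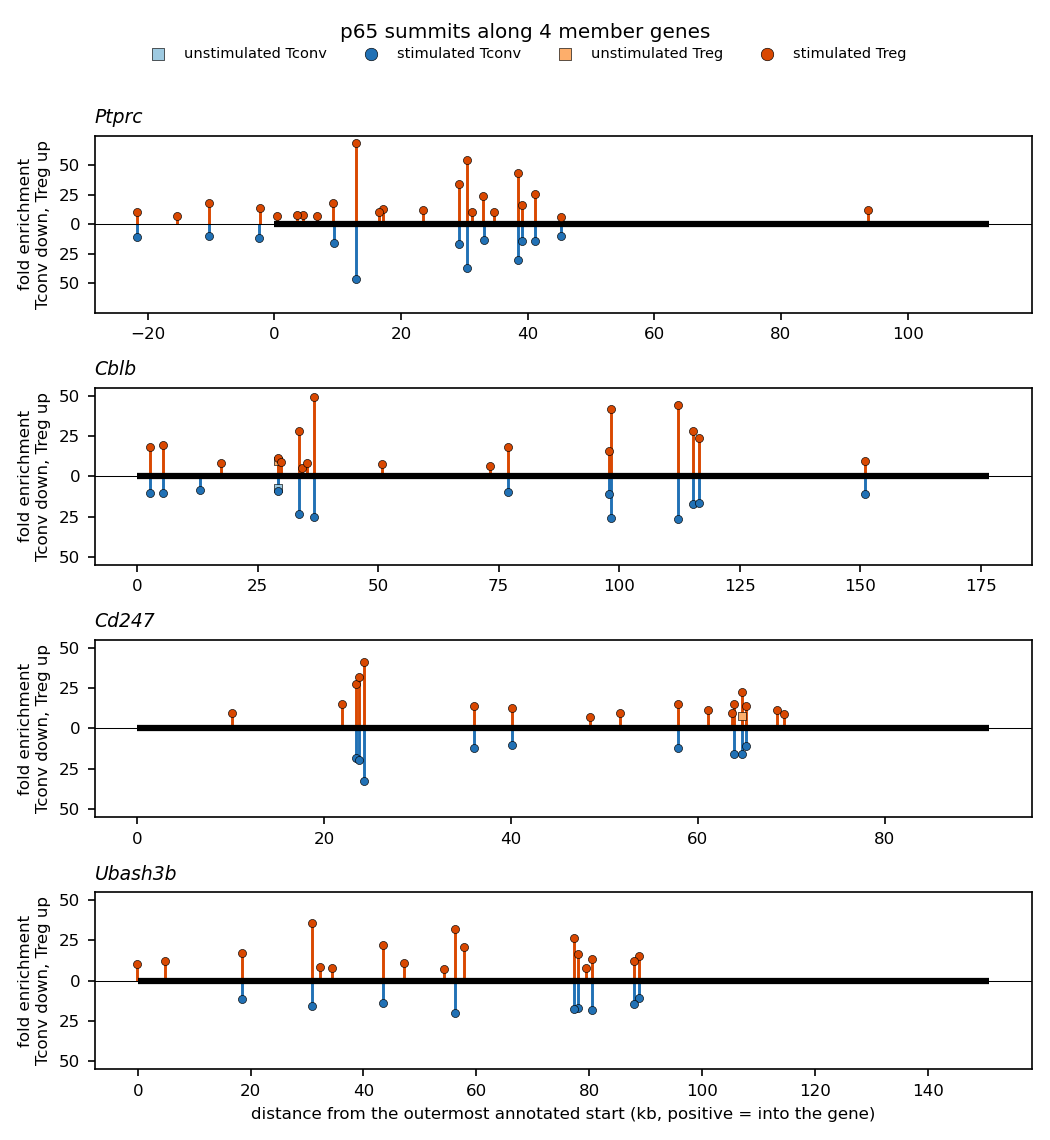
Position of p65 summits (kb from the outermost annotated start, whereas distances in the text are from the nearest start, into the gene to the right) along Ptprc, Cblb, Cd247 and Ubash3b, 4 of the 5 members with the most stimulated Treg summits (Cd2, the fifth, has no start in the table). Bar height is fold enrichment, upward for Treg and downward for Tconv, with circles for stimulated and squares for unstimulated lists and a thick line for the gene; the 12, 13, 9 and 9 stimulated Tconv summits lie mostly opposite stimulated Treg summits.

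Stimulated and unstimulated lists of the same cell type were then compared region by region, with overlapping entries of a list merged and a counterpart defined as an overlap of at least 1 bp. At the level of genes, 19 members had a summit in stimulated and none in unstimulated Tconv (8.23% of all genes), and 16 did so in Treg (14.6%). The reverse held for Pag1 and Sos1 in Tconv (4.2% of all genes) and for Sos1 alone in Treg (2.65%). Of the 104 stimulated Tconv regions at members, 93 had no unstimulated counterpart (89.4%, 82.0 to 94.0%), against 67.4% of all regions of that list. Of the 187 stimulated Treg regions 172 had none (92.0%, 87.2 to 95.1%), against 77.3% of all. In the other direction 2 of the 13 unstimulated Tconv regions had no stimulated counterpart (15.4%, 4.33 to 42.2%; 36.3% of all), and 3 of the 18 unstimulated Treg regions had none (16.7%, 5.84 to 39.2%; 21.6% of all). With the lists held to equal lengths these became 53.8% in Tconv (64.5% of all) and 52.9% in Treg (76.6% of all). At those lengths the stimulated regions without an unstimulated counterpart were 90.8% in Tconv (63.5% of all) and 87.5% in Treg (76.1% of all).

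Where an unstimulated and a stimulated summit lay within 100 bp of each other, their folds could be set side by side. In Tconv there were 10 such pairs at members, with a median ratio of stimulated to unstimulated fold of 1.80 (0.463 to 6.77), against 1.15 over all 1764 pairs of these lists. In Treg there were 14, with a median of 2.92 (0.515 to 16.6), against 1.29 over 2346. The highest ratios were at Cd5 in Tconv and at Cd2 in Treg, and the lowest at Grb2 in both. The ratio carries any difference in depth and background between the lists.

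Stimulated Tconv and stimulated Treg shared 29 member genes, and the shares of member regions in 1 of the 2 lists alone were near those of all regions. Cd3e and Pag1 were the 2 members that stimulated Treg listed and stimulated Tconv did not (9.65% of all genes), and 0 members had the reverse (0.777%). Of the 104 stimulated Tconv regions 100 had a stimulated Treg counterpart. The 4 without (3.85%, 1.51 to 9.47%; 4.15% of all) lay at Grap2 (10.5-fold), Plcg1 (11.4-fold), Vav1 (13.6-fold) and Cblb (8.32-fold). Of the 187 stimulated Treg regions 84 had no Tconv counterpart (44.9%, 38.0 to 52.1%; 49.3% of all). Those 84 had a median highest fold of 9.47, against 21.4 for the 103 with a counterpart, and 54 of them were above 38.1, the weakest −log10 p that the stimulated Tconv list held. Members had 235 summits in stimulated Treg and 122 in stimulated Tconv, in lists of 13078 and 6480 summits. At the common −log10 p cut-off of 38.1 they had 183 in Treg and 122 in Tconv. Among the strongest 3132 summits of each list they had 72 in Treg and 75 in Tconv. The part of list length in this difference was not tested. With these equal lengths, 14.1% of the Treg and 15.4% of the Tconv member regions lacked a counterpart, against 30.1% and 31.2% of all regions.

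Summits of the stimulated lists that lay within 100 bp of each other numbered 118 at 29 members, out of 6065 in all, and were a median of 11 bp apart. The median ratio of Treg to Tconv fold was 1.42 at members (0.532 to 2.94) and 1.19 over all pairs, whose 5th and 95th percentiles were 0.720 and 2.23. Of the 118 pairs 79 were above the median of all pairs. A ratio under 1 was found in 20.3% of member pairs and 31.0% of all pairs. By gene, the median ratio was highest at Cd2 (1.84 over 5 pairs), Sh2d2a (1.64 over 4) and Cblb (1.64 over 12). It was lowest at Plcg1 (0.532, 1 pair), Sla2 (0.772, 1 pair), Grap2 (0.822 over 3) and Lat (0.981 over 2). Pairs in the same gene share their libraries and are not independent, and the lists' scales differ by an unknown amount, so these ratios are read only against that of all pairs.

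**Figure D3:**
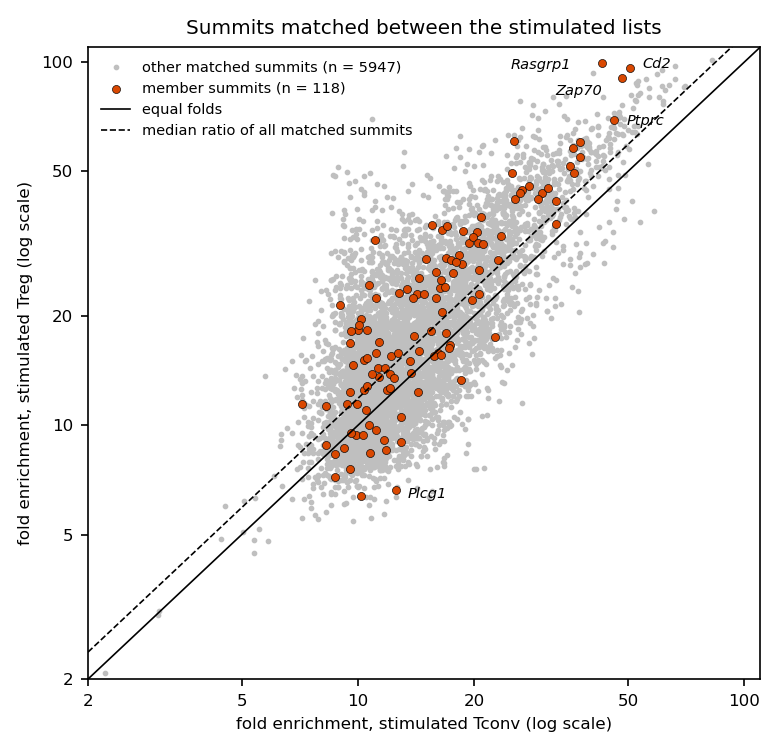
Fold enrichment of summits matched within 100 bp between stimulated Tconv (horizontal, log scale) and stimulated Treg (vertical, log scale), for 118 member pairs (orange) among 6065 pairs in all (the others grey). The solid line marks equal folds and the dashed line the median ratio of all pairs, 1.19; Rasgrp1, Cd2 and Zap70 lie at the upper right, and Plcg1 lies under the line of equal folds.

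Without stimulation Tconv and Treg were close at the members they shared. In unstimulated Treg 5 members had a summit that Tconv lacked (Cd247, Cd2, Cd6, Ptpn22 and Dgkz; 2.61% of all genes), and Vav1 had the reverse (1.69%). Of the 18 unstimulated Treg regions 6 had no Tconv counterpart (33.3%, 16.3 to 56.3%; 20.6% of all): those of the 5 genes and the element 24.8 kb upstream of Cd5. Their folds were low, from 5.24 to 7.80. All 6 overlapped regions of both stimulated lists, as did 377 of all 654 merged regions in unstimulated Treg and not in unstimulated Tconv (57.6%). Of the 13 unstimulated Tconv regions 1 had no Treg counterpart (7.69%, 1.37 to 33.3%; 13.9% of all), that of Vav1 at 5.91-fold. The 12 matched pairs had a median Treg to Tconv ratio of 0.995, against 1.03 over all 2599 pairs.

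When the 4 lists were merged, members held 188 of 11923 regions. Of these 84 were in stimulated Treg alone (44.7%; 41.1% of all regions) and 82 in both stimulated lists alone (43.6%; 27.5% of all). Regions in all 4 lists numbered 9 (4.79%; 13.8% of all), and regions in both unstimulated lists alone 2 (1.06%; 3.98% of all). The shares of members were thus higher than those of all regions for both stimulated lists together and lower for all 4 lists.

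Most member summits after stimulation lay away from starts. Starts were known from RefSeq for 29 members. In stimulated Tconv 14 of 103 summits lay within 1 kb of one (13.6%, 8.27 to 21.5%), against 46.9% of all summits of the list with a known start, and in stimulated Treg 27 of 192 did (14.1%, 9.85 to 19.7%), against 40.7%. Without stimulation the shares were 5 of 11 in Tconv (45.5%, 21.3 to 72.0%; 82.4% of all) and 7 of 14 in Treg (50%, 26.8 to 73.2%; 80.3% of all). The median distance from the nearest start was 8.61 kb in stimulated Tconv and 12.5 kb in stimulated Treg, with 50 and 103 summits beyond 10 kb. Inside a member gene lay 78.7% of the member summits of stimulated Tconv and 74.0% of those of stimulated Treg, against 58.1 and 59.8% of all summits that were assigned to a gene by the same rule. In the unstimulated lists the shares were 53.8% in Tconv and 61.1% in Treg, against 56.6 and 55.3%. Ptprc, Cblb, Cd247 and Ubash3b together held 35.2% of the member summits of stimulated Tconv, so these shares rest in part on a few long genes. Exons and introns were not annotated here.

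**Figure D4:**
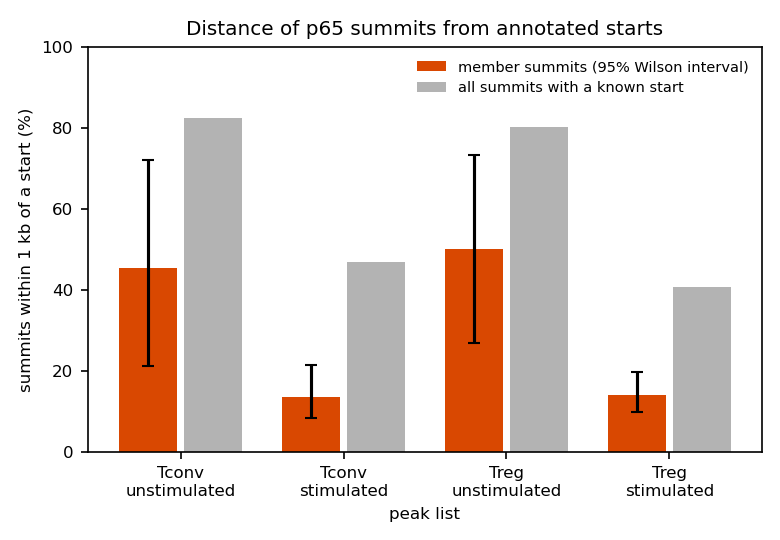
Share of p65 summits within 1 kb of an annotated start (%) in each peak list, for members (orange, with 95% Wilson intervals over summits) and for all summits with a known start (grey). The member bars stand at 45.5, 13.6, 50 and 14.1% and the grey bars at 82.4, 46.9, 80.3 and 40.7%.

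By strength, members reached the top 10% of the stimulated lists more often than the summits of those lists in general. In stimulated Tconv 20 of 122 member summits did (16.4%), at 13 genes, and in stimulated Treg 40 of 235 (17.0%), at 20 genes, while in each unstimulated list the single such summit was that of Grb2. The median fold of member summits was 9.05, 14.2, 7.57 and 12.1 in unstimulated Tconv, stimulated Tconv, unstimulated Treg and stimulated Treg (8.31, 12.6, 8.13 and 11.2 for all summits).

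The promoters of members were also searched for short motifs over 250 upstream bases and both strands, and matches of different motifs may overlap. The 10-letter kB consensus, the sequence NF-kB dimers bind, was in 0 of the members' 43 promoters (0 to 8.2%), against 5.43% of 21262 promoters and 7.18 to 8.97% of those with a summit in 1 of the lists. TTCCTC was in 20 (46.5%, 32.5 to 61.1%; 22.2% of all), GGGCGG in 15 (34.9%; 42.6% of all) and CCGGAA in 3 (6.98%; 15% of all). These letters describe the promoters alone, since the strongest summits lay elsewhere and their sequence was not read here. The outermost starts of Grb2 and Grap2 are not among the 43 promoters.

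Other genes of T cell receptor signalling, from a list of 40 that act beside or downstream of the members, were counted alike. In unstimulated Tconv 18 had a summit (45%, against 12.9% of all genes), and in stimulated Tconv 30 (75%, against 16.9%). In unstimulated Treg 17 had one (42.5%, against 13.8%), and in stimulated Treg 34 (85%, against 25.8%). Members stood at 34.3, 82.9, 45.7 and 88.6% in the same order. Both sets thus stood above all genes in every list. Prkcq, which encodes protein kinase C theta, had 35.1-fold in stimulated Tconv and 48.5-fold in stimulated Treg, and Orai1, the calcium channel subunit, 30.3 and 45.5-fold. Map4k1, which encodes the inhibitory kinase HPK1, had 28.4-fold in unstimulated Tconv and 29.1-fold in unstimulated Treg. In stimulated Tconv it had 16.0-fold and in stimulated Treg 9.54-fold. Of 17 genes with the same functions in B cells, 0, 2, 1 and 5 had a summit in the 4 lists in that order (0, 11.8, 5.88 and 29.4%). They were led by Cd72 (21.6-fold) in stimulated Tconv and Dapp1 (21.5-fold) in stimulated Treg. Of 15 myeloid genes 2 had a summit in each list (13.3%). Tyrobp stood at 32.1-fold in stimulated Tconv and 42.6-fold in stimulated Treg, and Itgam at 38.7 and 27.8-fold. The part of other cells in the members' summits was not tested.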

How the data were processed

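Each group gave 2 libraries from an immunoprecipitation of p65, amplified in 12 PCR cycles, per the labels' protocols. The submitters' processing notes name MACS2 2.1.1.20160309, BWA 0.7.15-r1140 and Trim Galore 0.4.1 and give mm10 as the build. How the inputs were used to call peaks is not stated in these sources. The authors deposited 1 peak list per group, named as pooled, free of blacklisted regions and kept by a conservative reproducibility filter (IDR). The fold enrichment of each summit is the authors' ratio, and its −log10 p is likewise the deposited value of the peak caller. The deposited score equals 10 times that −log10 p without decimals in 100% of entries and was not used further.

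Summits were assigned with RefSeq gene bodies of GRCm38.p6, to which all 35 members matched. A start is a RefSeq promoter start or the outermost gene end on its strand. Within a list, entries that overlap were joined to regions, with counterparts by overlap of at least 1 bp, and summits of different lists were matched where mutually nearest within 100 bp. Promoter sequences are RefSeq's, and those that overlap each other agreed in each of 1856 comparisons. Python 3.11.15, pandas 2.3.3, numpy 2.4.6 and scipy 1.17.1 were used. The assignment and overlap steps were checked by direct recalculation on a random sample of the stimulated Treg regions. Overlap was also checked on random subsets of those regions that were shifted slightly. The deposited lists hold no values per library, so no test was run. Members, gene lists and motifs were chosen with earlier results of these data known. Every member with a summit is described by role, in full those in the top 10% of a list, in all 4 lists, or in 1 cell type after stimulation. Alternatives were other assignment rules, stricter lists, equal list lengths and a stricter overlap.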

Additional observations from a re-analysis of the deposited data

How the results depend on the processing

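No paired analysis was possible because the authors' lists pool both libraries of a group and carry no replicate numbers, and for the same reason no library could be left out. Assignment within 10 kb kept all 16 results within the limits set for a change (1.5 times for a count, the Wilson interval for a share). With summits inside a gene alone, 6 members were listed in unstimulated Tconv (7 summits; 7.57% of all genes) and 10 in unstimulated Treg (11 summits; 8%). With every gene within 50 kb counted, these were 20 (27 summits; 32.5%) and 26 (36 summits; 33.4%). At the common −log10 p cut-off of 38.1 they were 5 (5 summits; 5.85%) and 6 (6 summits; 6.69%), and in the upper part of each list by −log10 p (50% of summits) 7 (8 summits; 6.96%) and 6 (6 summits; 7.51%). In that upper part stimulated Tconv held 79 and stimulated Treg 140 member summits, and with equal list lengths 75 and 72.

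The following shares are those of member regions, each with the share of all regions in brackets. Stimulated Tconv regions without an unstimulated counterpart made up 96.2% (81.9%) at the common cut-off, 94.2% (76.3%) in the upper part of the lists and 94.2% (74.7%) with a reciprocal overlap of 50%. In Treg they were 96.7% (87.4%), 95.8% (84.8%) and 96.3% (81.2%) in the same order, and 86.6% (77.3%) with every gene within 50 kb. Stimulated Treg regions without a Tconv counterpart were 35.5% (38.1%) at the common cut-off, 14.1% (30.1%) with equal lengths and 52.9% (54.6%) with reciprocal overlap. Stimulated Tconv regions without a Treg counterpart were 15.4% (31.2%) with equal lengths and 15.4% (12.3%) with reciprocal overlap. Unstimulated Tconv regions without a stimulated counterpart were 50% (53.9%) in the upper part, 53.8% (64.5%) with equal lengths and 53.8% (51%) with reciprocal overlap. In Treg they were 52.9% (76.6%) with equal lengths and 61.1% (35.2%) with reciprocal overlap. Unstimulated Treg regions without a Tconv counterpart were 0% (16.9%) in the upper part, and unstimulated Tconv regions without a Treg counterpart 0% (13.9%) inside genes and 0% (7.18%) at the common cut-off. The cause of these moves was not tested. The unstimulated counts rest on 13 and 18 summits. Library depth is unknown, so a summit missing from a list was not detected at its threshold.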

Other observations

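Several genes that act beside or downstream of the 35 members were also listed with strong summits after stimulation. Pik3r1, which encodes the regulatory subunit of PI 3-kinase, had 24.9-fold in stimulated Tconv and 52.7-fold in stimulated Treg, with 5 and 16 summits. Nck2, an adaptor that binds CD3 epsilon, had 11.2-fold in stimulated Tconv (3 summits) and 48.6-fold in stimulated Treg (10 summits). Itpr1, a receptor for inositol trisphosphate, had 27.3-fold and 48.0-fold in the same order. Stim2, a calcium sensor of the endoplasmic reticulum, was listed throughout, at 18.3-fold in unstimulated Tconv, 31.0-fold in stimulated Tconv, 19.4-fold in unstimulated Treg and 39.8-fold in stimulated Treg.

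Dok2, which encodes an inhibitory adaptor, had higher folds without stimulation, at 21.8 in unstimulated Tconv and 19.9 in unstimulated Treg. Stimulated Tconv had 12.4 and stimulated Treg 13.2, an order also seen at Grb2 and Map4k1. These genes were picked for their values, and folds of different lists carry differences in depth that are unknown.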
